A study of Mus musculus with 2 samples.

Results

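Chemokine ligands are small secreted proteins that attract cells along a gradient. The 35 chemokine genes described here are those whose symbol in the array's annotation is Ccl or Cxcl with a number, Cx3cl1, Xcl1, Pf4 or Ppbp. They are read by 53 probe sets, out of 18193 named genes and 34945 probe sets with 1 gene symbol. The cells were from ICR mice at postnatal day 4: superficial zone cells, the flattened chondrocytes of the surface layer of articular cartilage, taken from femoral and tibial joints and grown in DMEM with 10% serum. One culture was given 10 μM retinoic acid, the active form of vitamin A, for 24 h (n = 1), and the other was grown without it (control, n = 1). The RNA was read on Affymetrix Mouse Genome 430 2.0 arrays, 1 for each culture. The labels do not say how many animals a culture held, whether both came from 1 preparation, or whether the control received a vehicle.

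Chemokines are named for the spacing of their first cysteines, as CC, CXC, CX3C or XC, and act through G protein-coupled receptors that are shared between several ligands. Many are induced by interleukin 1, tumour necrosis factor or interferon through NF-κB and STAT factors. Others, such as Cxcl12, are made constitutively by stromal cells. In joints, chondrocytes and synovial fibroblasts can release chemokines that draw monocytes and neutrophils.

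With 1 array per group there is no replicate check and no significance test, and each fold describes these 2 arrays. Values are MAS5 signals, a linear brightness in arbitrary units, which can be compared between arrays for 1 probe set but not between genes. A signal counted as measured when it exceeded the median of its array, taken without the control probe sets and equal to 29.7 with retinoic acid and 26.5 in control. That median served as the floor, to which lower signals were raised, so a gene measured on a single array is given as "at least" a fold. The only repeat measurement was between probe sets of 1 gene, whose log2 ratios had a pooled SD of 0.30 over 4993 genes. It covers scatter within the same RNA and not the difference between cultures. In such bulk RNA, fewer cells of a type and less RNA per cell cannot be told apart. The cells' own markers were present and several differed. Of all measured genes, 4.34% were lower and 6.54% higher by at least 2-fold. Of 6 cartilage markers 4 were lower past 2-fold: Acan (32.3-fold), Sox9 (10.8-fold), Hapln1 (9.37-fold) and Matn1 (5.54-fold), while Col2a1 and Comp had log2 ratios of −0.37 and −0.35. Of 5 superficial zone markers Clu was 5.97-fold higher and the others, with the lubricin gene Prg4 at −0.74, had log2 ratios between −0.74 and −0.46. The part of such shifts in the chemokine values was not tested.

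The culture with retinoic acid had less Ccl7, Ccl2 and Ccl9 signal than control, and more Ppbp, Ccl6, Cxcl15, Cxcl13 and Pf4 signal. Of the 35 chemokine genes, 21 (60%) were above the median on at least 1 array, against 65.3% of all named genes. The median was exceeded on both arrays by 16 of the 21, with retinoic acid only by 3 and in control only by 2. Of these 21, 5 were higher with retinoic acid by at least 2-fold, where the background was 6.54% of all 11884 measured genes, and 3 were lower by as much, where the background was 4.34%. The shares of chemokine genes were 23.8% higher and 14.3% lower. Of the 5 higher genes 3 are bounds from a control signal at or below the floor. The median log2 ratio was 0.16 over the 20 chemokine genes with a ratio and 0.011 over all measured genes with one. The chemokine genes therefore lay on both sides, with 11 ratios above 0 and 9 below. Most of these genes lay near the floor: with it raised to the 70th percentile, Ccl7 and Ccl2 alone were past 2-fold, both lower.

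**Figure D1:**
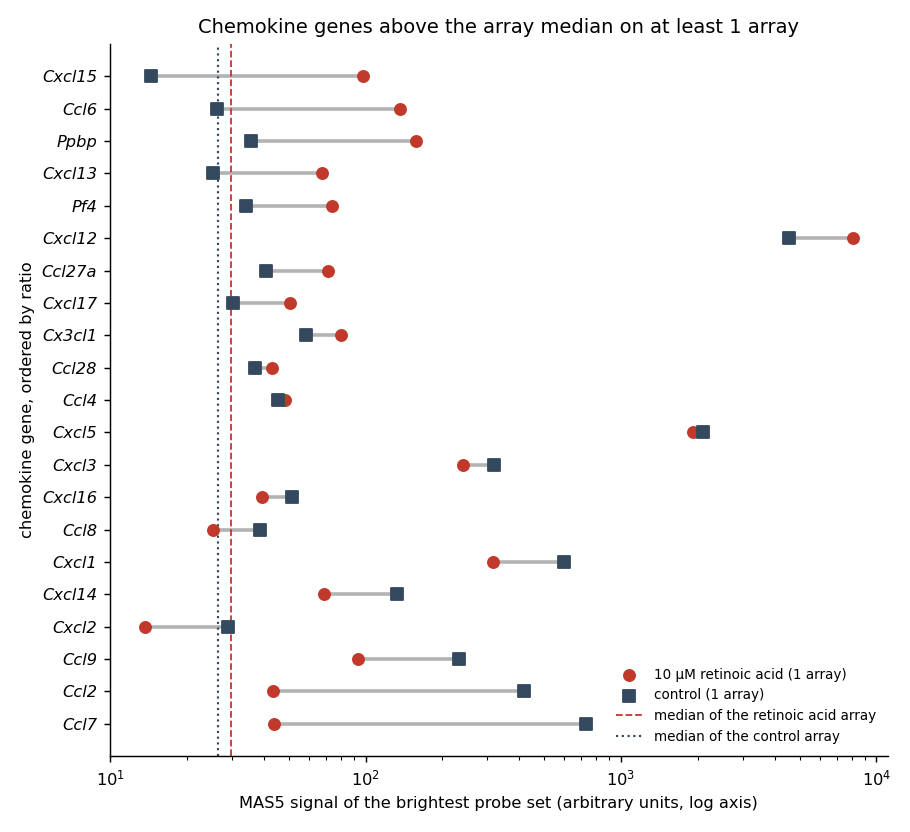
MAS5 signal of the brightest probe set (log axis) of the 21 chemokine genes above the array median on at least 1 array, with retinoic acid (circles) and in control (squares), 1 array each, ordered by ratio. The line between the symbols is the difference; Ccl7 and Ccl2 have the longest lines to the left, with retinoic acid signals of 43.9 and 43.5 close to the median of that array.

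Ccl7 and Ccl2 had the lowest ratios among the chemokine genes. Ccl7, also known as MCP-3, attracts monocytes through the receptors Ccr2, Ccr1 and Ccr3. Its only probe set had a signal of 43.9 with retinoic acid and 728 in control, a 16.6-fold lower value. It was the 6th lowest ratio among the 10722 genes above the median on both arrays. Ccl2, also known as MCP-1, is the main Ccr2 ligand and a product of many stromal cells. Its only probe set had 43.5 with retinoic acid and 417 in control, which is 9.58-fold lower and the 16th lowest ratio. With retinoic acid, Ccl7 was at 1.48 and Ccl2 at 1.47 times the floor, against 27.5 times for Ccl7 and 15.7 times for Ccl2 in control. The size of both folds depends on how signals near the floor are treated: with each array's median added to the signals before taking the ratio, the log2 ratios were −3.36 for Ccl7 and −2.60 for Ccl2, and with the floor at the 70th percentile −2.51 for Ccl7 and −1.71 for Ccl2, against −4.05 and −3.26 at the median floor.

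The third lower gene was Ccl9, a mouse chemokine also called MIP-1γ that acts on Ccr1. Its brighter probe set had 93.4 with retinoic acid and 233 in control, 2.49-fold lower. The other had 57.6 with retinoic acid and 163 in control, so that both lay past 2-fold, with the brighter one at a log2 ratio of −1.32. Other inflammatory CC chemokines were near or below the floor. Ccl8, also known as MCP-2, had 25.4 with retinoic acid, below the median, and 38.5 in control, at least 1.29-fold lower. Ccl4, also known as MIP-1β, had 48.4 with retinoic acid and 45.2 in control, a log2 ratio of 0.098 that is smaller than the scatter between probe sets. Ccl3, Ccl5, Ccl11, Ccl12 and Ccl24 were not above the median on either array.

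Ccl6, a mouse chemokine of myeloid cells that also acts on Ccr1, went the other way. Its brighter probe set had 136 with retinoic acid and 26.2 in control, just under the floor, which makes it at least 5.14-fold higher. Its second probe set had 54.8 with retinoic acid and 16.6 in control. Both probe sets were thus above the median with retinoic acid only, and with the floor at the 70th percentile the log2 ratio was 0.17. Ccl6 and Ccl9 are direct neighbours on mouse chromosome 11 in the GRCm38.p6 annotation, with no other protein-coding gene between them. So are Ccl2 and Ccl7, the lowest pair, at the start of another group of genes on the same chromosome.

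The neutrophil attractants that act on Cxcr2 were above the median in both cultures, except Cxcl2. Cxcl1, also known as KC, had 317 with retinoic acid and 599 in control, 1.89-fold lower. Its other probe sets were lower too, with 266 against 496 and 322 against 432, a range of log2 ratios from −0.92 to −0.42. Cxcl3 had 242 with retinoic acid and 318 in control, 1.32-fold lower. Cxcl5, also known as LIX, had 1909.5 with retinoic acid and 2102 in control, a log2 ratio of −0.14 that is within the scatter between probe sets. Cxcl2, also known as MIP-2, had 13.7 with retinoic acid, below the median, and 28.9 in control, just above it; because the floors of the arrays differ, it has no ratio. Of these genes, Cxcl1, Cxcl3 and Cxcl5 were within 2-fold.

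Ppbp, whose product is cut to a Cxcr2 ligand and is stored in platelets, was the exception in that receptor group. Its probe set had 157 with retinoic acid and 35.5 in control, 4.43-fold higher and the 126th highest ratio of 10722. With the floor at the 70th percentile the log2 ratio was 0.37, against 2.15. Pf4, platelet factor 4, is the other platelet chemokine. It had 73.6 with retinoic acid and 34.1 in control, 2.16-fold higher, but was within 2-fold after quantile normalization (log2 ratio 0.97) and with the median as an offset (0.77). Of the other 4 platelet and megakaryocyte markers, 3 were measured, only 2 had a ratio and 0 were at least 2-fold different. Of all measured genes 6.54% were higher and 4.34% lower by as much. Itga2b had a signal of 144 with retinoic acid and 125 in control, and Gp1bb 42.3 with retinoic acid and 72.8 in control. Gp6 had 28.7 with retinoic acid, below the median, and 27.1 in control, and has no ratio. The defining gene Gp9 was not above the median on either array (2.09 with retinoic acid and 1.09 in control). Their summed signal was 218 with retinoic acid and 226 in control, a sum in which Itga2b weighs most.

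Cxcl12, also known as SDF-1, is the homeostatic ligand of Cxcr4 and of the scavenger receptor Ackr3, and retains progenitor cells in bone marrow. Its brightest probe set had 8060.3 with retinoic acid and 4538 in control, 1.78-fold higher. The next had 4344 with retinoic acid and 1653 in control, with a log2 ratio of 1.39 against 0.83 for the brightest. The remaining probe set had 45.2 with retinoic acid and 20.0 in control, below the median. All probe sets of Cxcl12 were thus higher with retinoic acid, and the fold depends on the probe set: by the median over probe sets Cxcl12 is past 2-fold. Among 10722 genes its brightest probe set gave the 898th highest ratio.

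**Figure D2:**
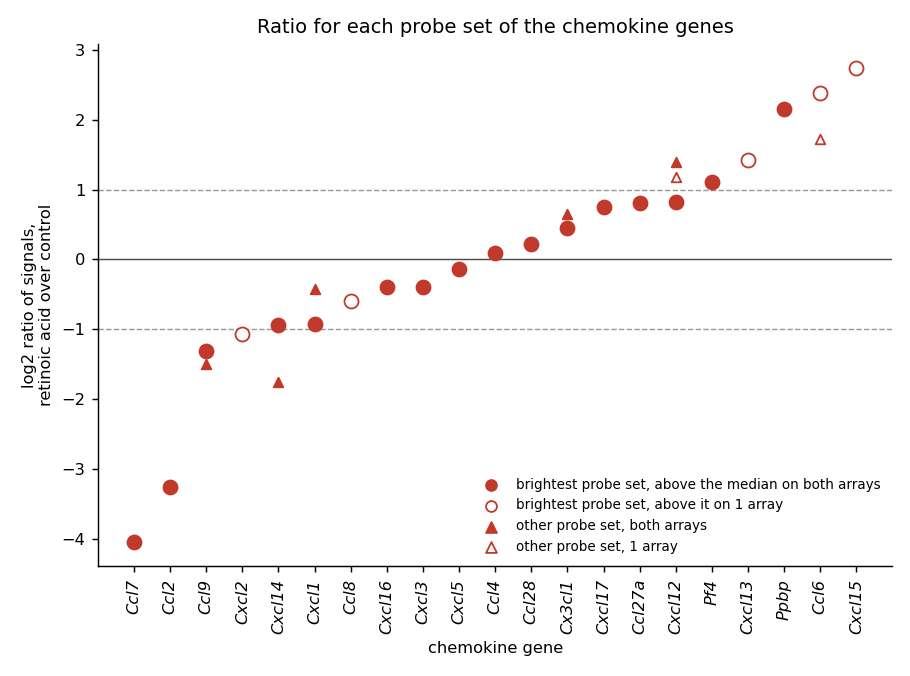
Log2 ratio of signals, retinoic acid over control, for each probe set above the array median on at least 1 array, by chemokine gene. Circles mark the brightest probe set, triangles the others, filled symbols those above the median on both arrays, and open symbols show the ratio of signals with no floor; dashed lines mark 2-fold. The probe sets of Ccl9 both lie below the lower dashed line, and those of Cxcl12 above the median on both arrays at 0.83 and 1.39.

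Other CXC chemokines had signals closer to the floor. Cxcl14, which is expressed constitutively in epithelia and stroma, had 68.9 with retinoic acid and 133 in control, 1.92-fold lower. Its second probe set had 42.1 with retinoic acid and 141 in control, a log2 ratio of −1.75, so Cxcl14 is lower by both and past 2-fold by 1. Cxcl15, known as lungkine for its expression in mouse lung, had 97.3 with retinoic acid and 14.5 in control, at least 3.67-fold higher, but its other probe set was not above the median on either array (20.8 with retinoic acid and 11.4 in control). Cxcl13, the Cxcr5 ligand that draws B cells, had 67.5 with retinoic acid and 25.2 in control, at least 2.55-fold higher. It was within 2-fold with the median as an offset (log2 ratio 0.91) and by the median over probe sets (0.76). Its second probe set was again not above the median on either array (28.8 with retinoic acid and 18.2 in control). These bounds therefore rest on 1 probe set each.

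The membrane-anchored chemokines were within 2-fold. Cx3cl1, also called fractalkine, is the Cx3cr1 ligand and is shed from the membrane by proteases. It had 79.8 with retinoic acid and 58.7 in control, 1.36-fold higher, and a second probe set had 43.0 with retinoic acid and 27.3 in control. Cxcl16, the Cxcr6 ligand, had 39.2 with retinoic acid and 51.6 in control, 1.32-fold lower, but its other probe set had 28.7 with retinoic acid and 1.68 in control, both below the median. The direction of Cxcl16 is not settled by its probe sets. Cxcl17, a chemokine of mucosal tissue, had 50.8 with retinoic acid and 30.3 in control, 1.68-fold higher.

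Of the CC chemokines of skin and mucosa, Ccl27a had 71.4 with retinoic acid and 40.9 in control, 1.75-fold higher by the only probe set that names it alone. That probe set is of a type (x_at) left out of the setting with unique probe sets only, where Ccl27a has no ratio. Ccl28, a mucosal ligand of Ccr10, had 43.1 with retinoic acid and 36.9 in control, a log2 ratio of 0.23 within the scatter between probe sets. The other 14 chemokine genes were not above the median on either array: Ccl1, Ccl3, Ccl5, Ccl11, Ccl12, Ccl17, Ccl20, Ccl22, Ccl24, Ccl25, Cxcl9, Cxcl10, Cxcl11 and Xcl1. Their highest signal by the brightest probe set was 21.5 with retinoic acid (Cxcl10) and 21.7 in control (Ccl1). They include the Cxcr3 ligands Cxcl9, Cxcl10 and Cxcl11, which interferon induces, and the lymphocyte attractants Ccl17 and Ccl22. A signal below the median does not show that the RNA is absent.

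**Figure D3:**
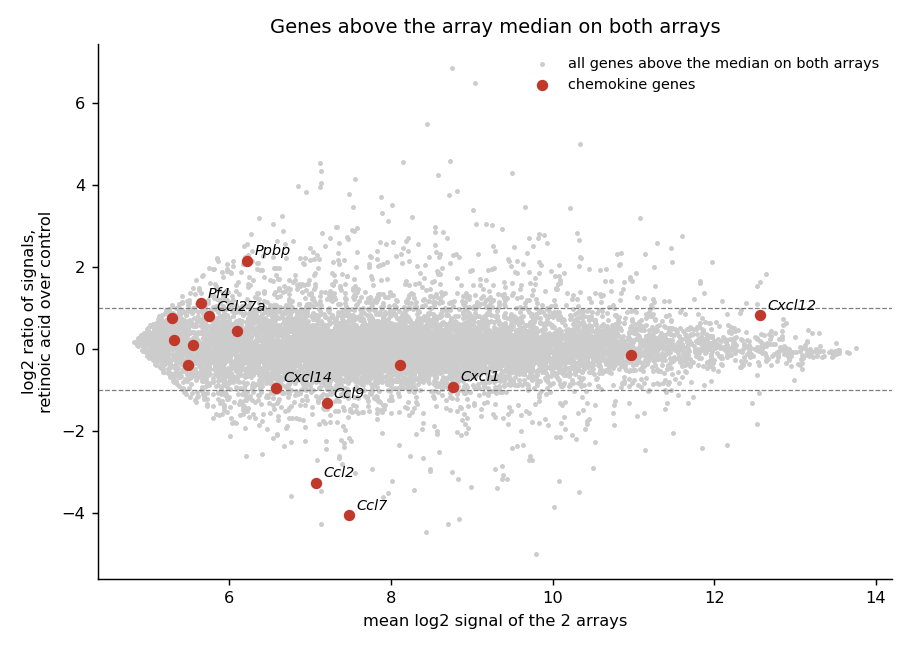
Log2 ratio of signals, retinoic acid over control, against the mean log2 signal of the 2 arrays for all 10722 genes above the median on both arrays (grey) and for the 16 chemokine genes among them (red); dashed lines mark 2-fold. Ccl7 (−4.05) and Ccl2 (−3.26) lie at the lower edge of the cloud, and Cxcl12 (0.83) at its bright end.

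Of the 8 chemokine genes past 2-fold 7 lie next to another chemokine gene, as do 14 of all 21 measured and 21 of all 35, and neighbours did not share a direction throughout. In the GRCm38.p6 annotation, Cxcl5, Ppbp, Pf4, Cxcl3, Cxcl15, Cxcl1 and Cxcl2 follow each other on chromosome 5 with 0 other protein-coding genes between them. Along this order the log2 ratios were −0.14 for Cxcl5, 2.15 for Ppbp, 1.11 for Pf4, −0.40 for Cxcl3, at least 1.88 for Cxcl15 and −0.92 for Cxcl1, with none for Cxcl2. The higher genes Ppbp and Pf4 are adjacent, and Cxcl15 lies between the lower genes Cxcl3 and Cxcl1. On chromosome 11, Ccl2 (−3.26) and Ccl7 (−4.05) are adjacent and are followed by Ccl11, Ccl12, Ccl8 and Ccl1, of which only Ccl8 was measured. In the other run on that chromosome Ccl9 (−1.32) is followed by Ccl6 (at least 2.36).

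**Figure D4:**
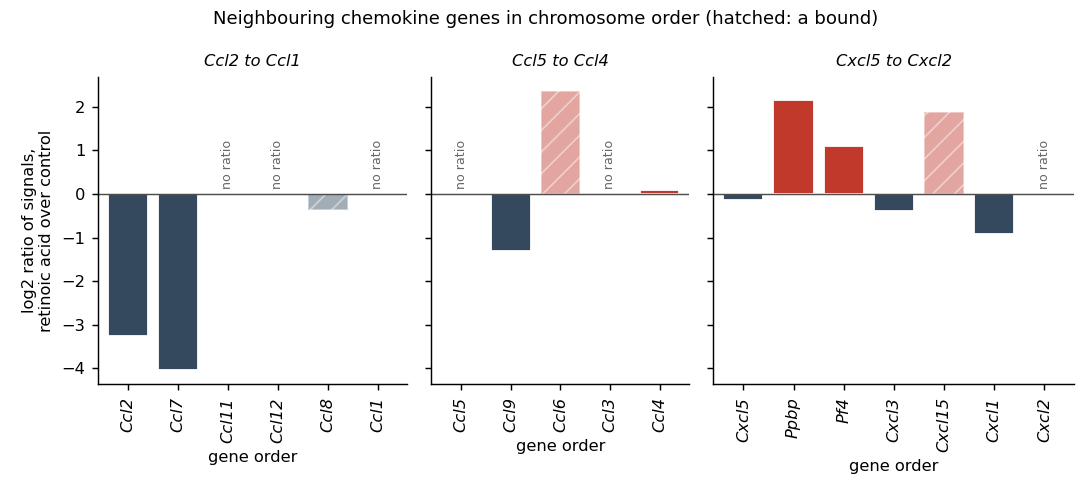
Log2 ratio of signals, retinoic acid over control, for 3 runs of neighbouring chemokine genes in chromosome order, without distances; hatched bars are bounds and "no ratio" marks genes without one. Ccl2 and Ccl7 are both low, while the adjacent pair Ccl9 (−1.32) and Ccl6 (at least 2.36) point in opposite directions, and so do Pf4 (1.11) and Cxcl3 (−0.40).

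Promoter sequence of these genes was read to show which known motifs stand next to the start sites of neighbours that went in opposite directions. RefSeq promoter sequence (GRCm38.p6) was matched for 25 of the 35 genes, and the 250 bases before each start were searched on both strands. Not matched were Ccl2, Ccl4, Ccl5, Ccl7, Ccl11, Ccl24, Cxcl5, Cxcl11, Cxcl16 and Cxcl17. The letters searched were the NF-κB consensus, TGANTCA for AP-1, AGGTCA for the core hexamer of nuclear receptor sites, of the kind retinoic acid receptors bind, and TATAAA for the TATA box. In the windows below, 5′ to 3′ toward the start and ending at the last base before it, capitals mark every match. Ccl6 was named by the rule for printed promoters, and the other windows were chosen after their values were seen. Ccl6 and Ccl9 are neighbours that were both past 2-fold, in opposite directions, and Ppbp is the higher gene of the Cxcr2 ligands.
Ccl6, chr11:83593088-83593337, minus strand: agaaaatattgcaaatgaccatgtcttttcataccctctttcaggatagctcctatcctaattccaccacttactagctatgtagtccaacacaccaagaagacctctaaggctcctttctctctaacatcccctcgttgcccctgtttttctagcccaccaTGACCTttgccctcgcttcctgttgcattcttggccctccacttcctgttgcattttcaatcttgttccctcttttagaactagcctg
Ccl9, chr11:83578637-83578886, minus strand: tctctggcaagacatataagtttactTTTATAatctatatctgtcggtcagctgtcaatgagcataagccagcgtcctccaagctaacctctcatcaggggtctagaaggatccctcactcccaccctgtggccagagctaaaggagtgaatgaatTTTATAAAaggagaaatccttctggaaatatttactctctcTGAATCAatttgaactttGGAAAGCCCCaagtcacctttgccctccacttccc
Ppbp, chr5:90768268-90768517, plus strand: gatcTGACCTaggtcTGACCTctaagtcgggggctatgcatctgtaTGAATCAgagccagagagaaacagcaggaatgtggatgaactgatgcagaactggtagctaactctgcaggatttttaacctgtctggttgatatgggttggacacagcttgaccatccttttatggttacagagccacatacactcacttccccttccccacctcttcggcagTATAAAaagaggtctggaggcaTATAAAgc
In the Ccl6 window the match is 1 hexamer, from 88 to 83 bases before the start. The Ccl9 window holds an NF-κB consensus from 35 to 26 bases before the start and an AP-1 match from 53 to 47, and the capitals farther away match the TATA box on either strand. The 3 kinds of match in the Ppbp window are 2 hexamers, an AP-1 match and 2 TATA boxes, the nearer from 8 to 3 bases and the other from 30 to 25 bases before the start.

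The Cxcr2 ligands Cxcl1, Cxcl2 and Cxcl3, of which Cxcl1 and Cxcl3 had lower signals with retinoic acid and Cxcl2 has no ratio, share a motif. It is shown in the 120 bases next to their starts.
Cxcl1, chr5:90891125-90891244, plus strand: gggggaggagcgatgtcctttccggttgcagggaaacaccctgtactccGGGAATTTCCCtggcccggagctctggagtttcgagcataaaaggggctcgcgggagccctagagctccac
Cxcl2, chr5:90903779-90903898, plus strand: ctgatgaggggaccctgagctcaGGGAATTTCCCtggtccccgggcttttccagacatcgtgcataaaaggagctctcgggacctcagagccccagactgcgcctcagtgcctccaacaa
Cxcl3, chr5:90785981-90786100, plus strand: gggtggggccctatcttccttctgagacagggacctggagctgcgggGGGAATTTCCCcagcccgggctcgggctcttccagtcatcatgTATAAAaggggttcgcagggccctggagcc
The same NF-κB match, GGGAATTTCC, begins 71 bases before the start in Cxcl1, 97 in Cxcl2 and 73 in Cxcl3, and it overlaps its match on the other strand. Over all 25 chemokine genes with promoter sequence, 7 held an NF-κB match, 4 an AP-1 match, 11 a nuclear receptor hexamer and 10 a TATA box. Among all 32851 RefSeq windows of the same length, 7.25% held the first, 6.75% the second, 14.0% the third and 12.4% the last. These shares are per window, while the chemokine counts are per gene over 28 windows, since Ccl25 and Ccl27a have several. Of the matched genes with a ratio, a hexamer stood before 4 of 9 with a ratio above 0 (Ccl6, Ccl27a, Cxcl13 and Ppbp) and 1 of 5 with a ratio below 0 (Cxcl14). These counts are too small to compare, and a match is not evidence of binding.

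The receptors for these ligands were mostly not measurable. The array read 16 chemokine receptor genes. Above the median on at least 1 array were 2 of them, where the share of all named genes was 65.3%. Of the 2, 0 were at least 2-fold different, where 6.54% of all measured genes were higher and 4.34% lower by as much. Cxcr3 had 40.0 with retinoic acid and 37.9 in control, and Ccr6 had 32.1 with retinoic acid and 16.0 in control, at least 1.21-fold higher. Ccr2, the receptor of Ccl2 and Ccl7, had 10.9 with retinoic acid and 7.77 in control, and Cxcr4, the receptor of Cxcl12, had 4.81 with retinoic acid and 3.16 in control, below the median on both arrays. Ackr3, the atypical receptor that takes up Cxcl12, was measured at 627 with retinoic acid and 657 in control, a log2 ratio of −0.067. The other 14 receptor genes were below the median in both cultures.

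Several genes that bind, cut or remove chemokines had more signal with retinoic acid. Of 13 measured, 5 (38.5%) were past 2-fold higher and 0 past 2-fold lower, against 6.54% higher and 4.34% lower among all measured genes. Of the 5, Ackr4 and Mmp9 are bounds from a control signal below the floor. The list was chosen with earlier results of these data known, so the shares only describe it. The median log2 ratio in the list was 0.50. Dpp4, the peptidase that inactivates Cxcl12 and other chemokines, had 187 with retinoic acid and 47.6 in control, 3.94-fold higher. Ackr4, a scavenger of homeostatic CC chemokines, had 71.9 with retinoic acid and 20.6 in control, at least 2.71-fold higher. Adam10, which sheds Cx3cl1 and Cxcl16 from the membrane, had 2497 with retinoic acid and 1183 in control, 2.11-fold higher, with other probe sets above the median on both arrays at log2 ratios of 1.26 and 0.95. Sdc1, a heparan sulfate proteoglycan that holds chemokines, was 2.56-fold higher by its brightest probe set (1164 with retinoic acid, 455 in control), and its others had log2 ratios from 0.73 to 0.98. Mmp9, a protease that trims CXC chemokines, had 136 with retinoic acid and 20.0 in control, at least 5.15-fold higher. Adam17 (593 with retinoic acid and 593 in control) and Sdc4 (1896 with retinoic acid and 1779 in control) differed little.

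Receptors for the cytokines that induce chemokines were read next. Of 16 measured, 2 (12.5%) were past 2-fold on the higher side and 2 (12.5%) on the lower, with 6.54% and 4.34% of all measured genes. Il1r1, the signalling receptor of interleukin 1, had 190.3 with retinoic acid and 761 in control, 4.00-fold lower. Its partner chain Il1rap had 102 with retinoic acid and 247 in control, 2.43-fold lower, and its other probe sets above the median on both arrays were lower as well, with log2 ratios of −1.69 and −0.64. Both chains of the interleukin 1 receptor were thus lower together. Tnfrsf1b, a receptor of tumour necrosis factor, had 450 with retinoic acid and 57.4 in control, 7.83-fold higher, and a second probe set had a log2 ratio of 1.22. Ifngr1, a chain of the interferon γ receptor, was 2.21-fold higher (719 with retinoic acid and 326 in control). Tnfrsf1a, the other receptor of tumour necrosis factor, had 1298 with retinoic acid and 1362 in control.

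In the NF-κB list, 2 of 18 measured genes (11.1%) were past 2-fold higher and 0 past 2-fold lower, close to the shares of all measured genes (6.54% and 4.34%); the median log2 ratio in the list was −0.086. Tnfaip3, also known as A20, which restrains NF-κB signalling, had 241 with retinoic acid and 38.8 in control, 6.23-fold higher. Nfkbiz, a nuclear IκB protein, had 1014 with retinoic acid and 404 in control, 2.51-fold higher, with its other probe sets at log2 ratios of 0.86 and 1.78. Nfkbia, the classical feedback inhibitor and a target of NF-κB, had 909 with retinoic acid and 957 in control. Its 5 probe sets gave log2 ratios from −0.43 to 0.36. The subunit gene Rela had 618 with retinoic acid and 611 in control, and Relb had 40.5 with retinoic acid and 71.8 in control.

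Among cytokines and other inflammatory products, 1 of 14 measured genes (7.14%) was past 2-fold higher and 1 (7.14%) past 2-fold lower, near the 6.54% and 4.34% of all measured genes. Vcam1, an adhesion molecule for leukocytes, had 1033 with retinoic acid and 449 in control, 2.30-fold higher. Its other probe sets were higher but within 2-fold, with log2 ratios of 0.89 and 0.57. Ptgs2, the inducible cyclooxygenase, had 148 with retinoic acid and 359 in control, 2.42-fold lower, and its second probe set had a log2 ratio of −0.56. Il6 and Tnf were not above the median on either array, with 5.09 and 1.90 with retinoic acid and 18.6 and 4.27 in control, and Il1b had 30.2 with retinoic acid, just above it, and 18.1 in control. Of 11 measured interferon response genes, 1 (9.09%) was past 2-fold higher and 0 past 2-fold lower, near the same background. Ifit2 had 331 with retinoic acid and 138 in control, 2.41-fold higher. Ifit3, Irf1 and Iigp1 lay just under the cutoff, at 1.98-fold, 1.97-fold and 1.81-fold higher. The control signals of Ifit3 (27.2) and Iigp1 (27.8) were close to the floor. Irf9 (−0.39), Rsad2, Irf7, Gbp2 and Stat2 had log2 ratios below 0, and the median in the list was 0.13.

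**Figure D5:**
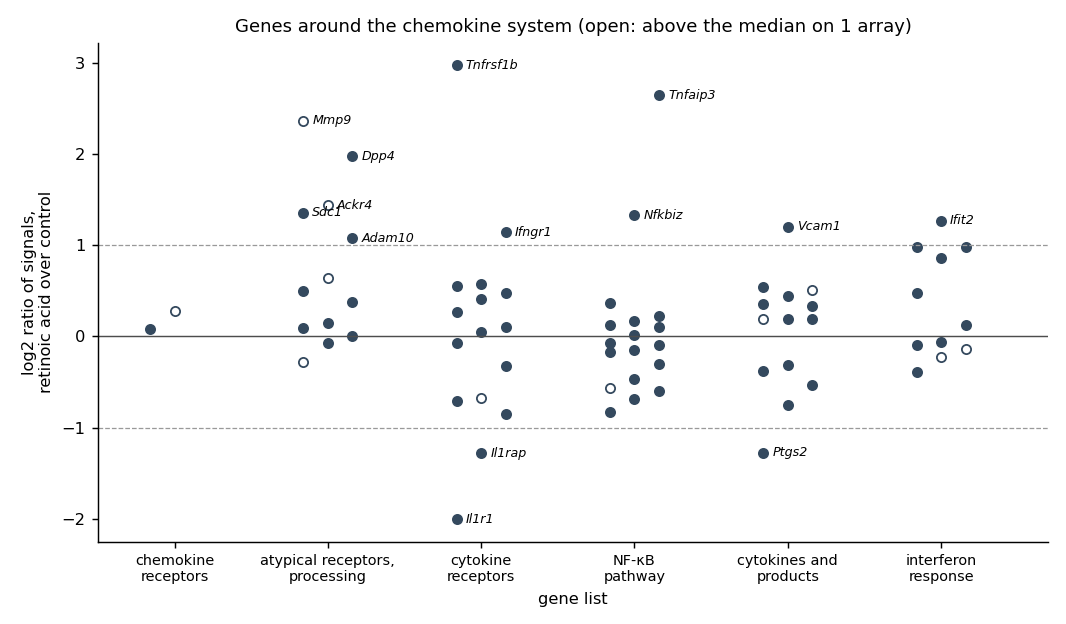
Log2 ratio of signals, retinoic acid over control, for the measured genes of 6 lists around the chemokine system; open symbols are bounds, dashed lines mark 2-fold, and genes past 2-fold are named. Il1r1 is the lowest and Tnfrsf1b the highest, at a log2 ratio of 2.97, point, and the receptor list has 2 points because 14 of its 16 genes were not measured.

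Markers of cells that release or carry chemokines were read beside these results. Of the 12 leukocyte and macrophage markers on the array 7 were measured, 6 had a ratio and 0 were at least 2-fold different. Of all measured genes 6.54% were higher and 4.34% lower by as much. Among all named genes 65.3% were above the median on at least 1 array. The summed signal of the 12 was 695 with retinoic acid and 642 in control, a sum in which Lyz2 weighs most. The pan-leukocyte gene Ptprc was not above the median on either array (6.59 with retinoic acid and 5.34 in control). Csf1r had 53.7 with retinoic acid and 60.3 in control, and Lyz2 had 354 with retinoic acid and 336 in control. The largest ratios in the list went in both directions. Cd14 had 102 with retinoic acid and 56.1 in control, a log2 ratio of 0.86. Laptm5 had 39.7 with retinoic acid and 59.6 in control, a log2 ratio of −0.58. Cd68 and Adgre1 had log2 ratios of 0.31 and 0.084. The 5 neutrophil and mast cell markers were all below the median on both arrays. Of 5 endothelial markers 4 were below the median on both arrays, Pecam1 and Cdh5 among them. Of the 3 osteoclast markers Acp5 was 6.45-fold higher (448 with retinoic acid, 69.5 in control), and Ctsk had 996 with retinoic acid and 831 in control. Ocstamp was below the median on both arrays. The summed signal of the 3 was 1446 with retinoic acid and 906 in control, a sum in which Ctsk weighs most. The part of Acp5-expressing cells in the Ccl6 and Ccl9 signals was not tested.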

How the data were processed

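The 35 chemokine genes and all lists were chosen with earlier results of these data known. Biotin-labelled cRNA from 100 ng total RNA of each culture was read by 1 array, per the labels' protocols. The authors deposited 1 linear intensity per probe set, made with MAS5, per the submitters' processing notes. The MAS5 version, scaling target and presence calls were not given in the sources used here. The 2% trimmed mean signal was 192 (retinoic acid) and 182 (control), and values were used as deposited.

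Probe sets were named by the platform annotation: of 45101, 64 were controls, 34945 had 1 symbol, 932 several and 9160 none, and only those with 1 were used. Where a gene had several probe sets, the one brightest on average (log2) stood for it. Signals at or below the array's median were raised to it before taking retinoic acid over control. A gene barely above 1 median can then get a ratio of the wrong direction, and was given none. Each chemokine gene above the median on at least 1 array is named. From the other lists, genes past 2-fold and others chosen for their known roles are named, some after their values were seen. With 1 array per group no test was run. Counting was tested on simulated data. Folds were planted there only in genes well above the floor, so genes near the floor were not covered. The 11 alternatives were other floors, scalings and probe set rules. Promoter windows came from RefSeq. Scripts ran in Python 3.11.15 (matplotlib 3.10.9, statsmodels 0.14.6, scipy 1.17.1, pandas 2.3.3, numpy 2.4.6).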

Additional observations from a re-analysis of the deposited data

How the results depend on the processing

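The counts and the median were recomputed under 11 other settings. With no floor, which counts all 35 chemokine genes, 10 were at least 2-fold higher and 8 lower. Over all 18193 genes the shares were then 11.7% higher and 11.6% lower. A floor at the 30th percentile gave 6 higher and 5 lower of 28 measured (all genes: 7.28% and 5.50%). One at the 70th percentile gave 0 higher and 2 lower of 10 measured (all genes: 5.32% and 3.08%). The median log2 ratio there was −0.27, against 0.0097 over all measured genes. The number higher was 3 with the median added as an offset and 2 when genes below the floor on either array were dropped, since 3 of the 5 are bounds. Of all measured genes, 5.55% were higher with the offset and 6.03% when those below the floor were dropped. The median changed sign, to −0.038 with quantile normalization, −0.015 with loess and −0.020 without genes below the floor on either array. Over all measured genes the median was −0.063 with quantile normalization, −0.033 with loess and 0.014 without genes below the floor. Ccl2 and Ccl7 were at least 2-fold lower under all 11 settings, and Ccl9 under all except the floor at the 70th percentile (−0.87). Of 204 values of single genes under these settings, 184 lay within the scatter between probe sets of the main value, 20 did not, and 0 of those past 2-fold changed sign. Cases in which a gene had no ratio under a setting are not among the 204. With the floor at the 70th percentile, for instance, 10 chemokine genes were measured, against 21 in the main setting. No paired analysis was possible because each group has 1 array. What limits the folds is signal close to the floor: 7 of 21 measured chemokine genes were above 2 times the floor on both arrays.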

Other observations

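Besides the 53 probe sets read above, 4 probe sets carry a chemokine symbol together with those of other genes and were left out of all counts. The 2 that list Ccl27a with 4 other symbols had signals of 115 and 78.0 with retinoic acid and 92.6 and 67.8 in control, which is 1.24-fold and 1.15-fold higher, smaller than the 1.75-fold of the probe set that names Ccl27a alone. Those that list Ccl21a and Ccl19, the Ccr7 ligands of lymphoid tissue, had 1.67 and 2.24 with retinoic acid and 2.42 and 2.04 in control, far below the array medians.

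Il6st, the gp130 chain shared by receptors of the interleukin 6 family, had 2049 with retinoic acid and 3706 in control by its brightest probe set. All 4 of its probe sets were lower, with log2 ratios from −1.13 to −0.40. Pdgfra, a receptor tyrosine kinase of mesenchymal cells read as a fibroblast marker, had 6023 with retinoic acid and 2333 in control, 2.58-fold higher, and its 3 probe sets had log2 ratios from 1.37 to 1.57. The other 4 fibroblast markers did not share this: Thy1 was 2.52-fold lower, and Col1a1, Col3a1 and Dcn had log2 ratios of −0.27, −0.091 and −0.068.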
